A study of Mus musculus with 10 samples.

Results

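Cd8 T cells of the kidney were picked from 2 single-cell libraries, 1 of an injured and 1 of an uninjured mouse kidney. A cell barcode was taken as a Cd8 T cell if it held at least 1 unique molecule (UMI) of at least 2 of the T cell genes Cd3d, Cd3e, Cd3g, Trac and Trbc2, at least 1 UMI of Cd8a or Cd8b1, and none of the B cell genes Cd79a and Ms4a1. The rule found 121 of 4376 barcodes. Of these, 116 were among the 3063 barcodes of the injured library, or 3.79% (exact 95% binomial interval 3.14% to 4.53%), and 5 were among the 1313 barcodes of the uninjured library, or 0.381% (0.124% to 0.886%). All intervals on single-cell values cover counting error only, and with 1 library per condition no test between the conditions was possible.

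The series studied kidney injury by ischaemia and reperfusion in mice aged 8 weeks, with Indian hedgehog (Ihh) deleted or intact. The artery of 1 kidney was tied for 15 minutes and kidneys were harvested 2 weeks later. Both single-cell libraries came from C57/BL6 mice, whose kidneys were digested on ice and sorted for live cells with DAPI. The 32 bulk RNA libraries fall into 8 groups of 4: injured and contralateral kidneys of each of 3 arms, the kidney left after nephrectomy, and uninjured kidneys. The Ihh-deleted arm was Pax8creERT2;Ihhfl/fl mice given tamoxifen, in which a tamoxifen-activated Cre is driven by the promoter of Pax8, a gene of tubule epithelium. The floxed vehicle arm (TG.VEH) was the same strain without tamoxifen, and the wild-type tamoxifen arm was C57/BL6 mice given the drug, so that all contralateral kidneys came from mice that also had an injured one. The last 2 arms are called intact here. The labels do not say whether the 4 libraries of a group came from separate mice, so the bulk p-values below measure only the spread between these libraries.

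Cd8 T cells carry a receptor that reads peptides on MHC class I, with Cd8a and Cd8b1 as the co-receptor chains and the Cd3 chains as its signalling part. Once activated they kill by releasing granzymes and perforin and attract other leukocytes with chemokines such as Ccl3, Ccl4 and Ccl5. In kidney recovering from ischaemia, lymphocytes gather around tubules that have not repaired.

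Markers were then read in the labelled cells. These genes were chosen with earlier results of these data known, so their detection is no independent check of the label. Nkg7, a granule protein of killer lymphocytes, was detected in 93.1% of the 116 barcodes, and Ccl5 in 94.8%. In T cells of the injured library without a Cd8 UMI, Nkg7 was detected in 36.4% of barcodes and Ccl5 in 41.9%. Cd3g was found in 91.4%, Cd8b1 in 86.2% and Cd8a in 67.2%, which the rule favours. The natural killer receptors Klrb1c and Klra8 and the gamma delta chain Trdc had no UMI. At this depth that allows up to 2.59% of barcodes with a UMI, or 15.2 CPM (counts scaled to a total of 1000000), and sets no limit on the share of cells that express them. Tcrg-C2, a gamma chain gene that alpha beta T cells can also transcribe, was present in 10 barcodes (8.62%), against 1.38% of T cells without Cd8. A UMI of any gene on the gamma delta and innate-like list, Tcrg-C2 included, was found in 17 barcodes (14.7%). That list summed to 147 CPM, against 98.2 CPM in T cells without Cd8. Cd4 was present in 1 barcode.

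Both co-receptor chains were seen in 62 of the 116 barcodes, Cd8a alone in 16 and Cd8b1 alone in 38. At the edge of the rule, 27 members had a single Cd8 UMI, 20 had 2 and 69 had at least 3. Ccl5 stood at 28872 CPM in the first of these, at 18221 CPM in the second and at 29674 CPM in the third. Nkg7 was detected in 77.8%, 90% and 100% of them. Just outside the rule, 9 barcodes had Cd8 and only 1 T cell gene, with Ccl5 at 6293 CPM, and 7 were left out for a B cell gene, with Ccl5 at 7287 CPM.

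Members were shallow, with a median of 1332 UMIs (1039 to 7468), 701.5 genes and 3.22% mitochondrial UMIs. The doublet caller marked 5 of 3063 barcodes, 1 of them a member; as this is 0.163% of the library, it did not work here. Of a short list of 9 myeloid and plasma cell genes (C1qa, C1qb, C1qc, Csf1r, Lyz2, Cd209a, Jchain, S100a8 and S100a9), 3 members held at least 2 UMIs and 93 held none. On the wider lists, 61 members held a UMI of a dendritic cell marker, MHC class II genes included, and 60 one of a proximal tubule marker. The 9 members over 3000 UMIs held 23.1% of all member UMIs and carried dendritic cell markers at 15850 CPM and proximal tubule markers at 6489 CPM. In the 105 members that were neither over 3000 UMIs nor held 2 UMIs of the short list, these stood at 617 and 1356 CPM. Ccl5 was 4078 CPM in those 9 and 33398 CPM in the 105. Across the 2 libraries 8 barcodes were shared, 1 of them a member.

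As a share of barcodes outside proximal tubule, Cd8 T cells were 5.23% (4.34% to 6.24%) of 2219 in the injured library and 1.34% (0.437% to 3.10%) of 373 in the uninjured one. Of all barcodes meeting the T cell rule they were 116 of 333 in the injured library, or 34.8% (29.7% to 40.2%), and 5 of 9 in the uninjured one. The 217 other T cells of the injured library, which had no Cd8 UMI, serve below as the comparison. They were as deep, with a median of 1342 UMIs, and summed to 366713 UMIs against 197168 for the Cd8 T cells. Of them 58 held a Cd4 UMI, so most of this class is not identified as helper cells, and in the others a missed Cd8 transcript cannot be told apart from an absent one.

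Of the genes named here Ccl5 had the highest level in Cd8 T cells; UMIs count molecules, so such levels do not scale with gene length. This chemokine attracts T cells and monocytes and made up 27109 CPM (exact Poisson interval 26387 to 27846) of the UMIs of Cd8 T cells, against 3649 CPM in T cells without Cd8, a log2 ratio of 2.89. A Cd8 T cell held a median of 28.5 Ccl5 UMIs, with the middle 50% of barcodes between 13 and 60.75 and the highest at 234, whereas the median of the other T cells was 0. Ccl5 was also seen in 13.2% of proximal tubule barcodes, and whether those cells had made it was not tested. After thinning every barcode to 1000 UMIs, Ccl5 was found in 92.5% of Cd8 T cells, 36.1% of other T cells, 11.4% of macrophages with C1q genes and 6.08% of proximal tubule barcodes. Of all Ccl5 UMIs of the injured library, 66.8% lay in the 116 Cd8 T cells.

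**Figure D1:**
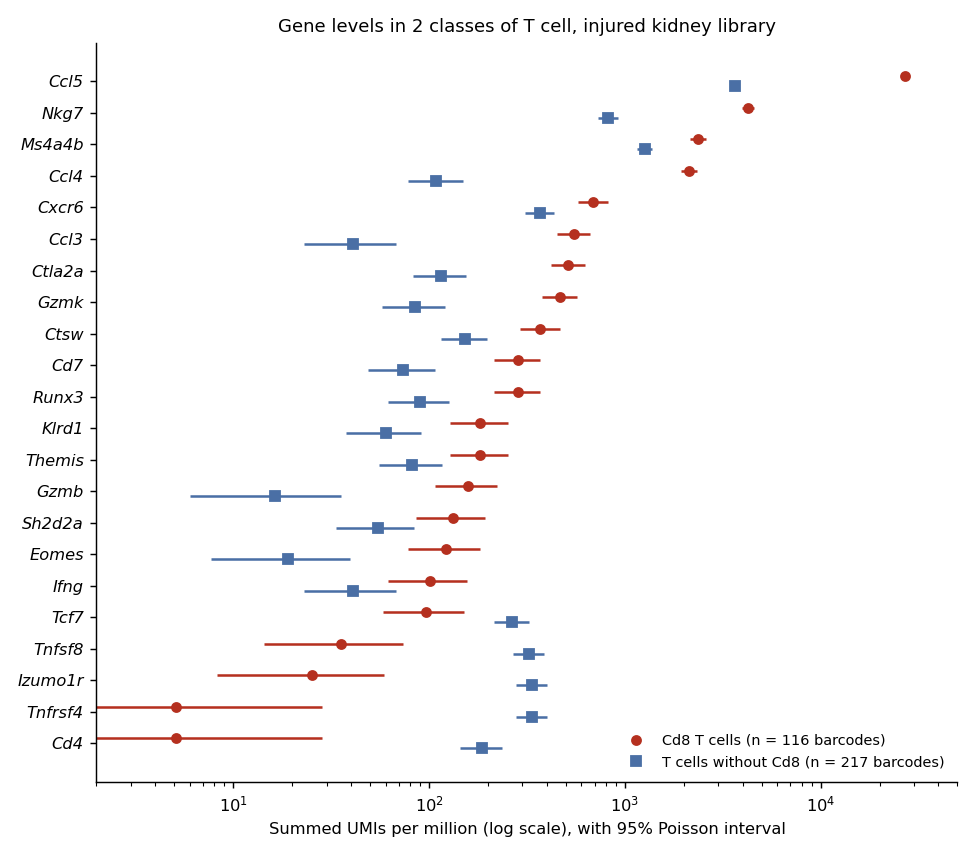
Level of chosen genes in Cd8 T cells (116 barcodes) and in T cells without Cd8 (217 barcodes) of the injured library, as CPM of summed UMIs on a log axis with exact 95% Poisson intervals. Ccl5 and Nkg7 lie highest, and Ccl4, Ccl3, Gzmb and Gzmk are among the genes whose intervals lie far above those of the other T cells, while Tnfrsf4, Cd4 and Izumo1r lie below.

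Among 2751 genes with at least 30 UMIs over both classes, 47 were at least 2-fold higher in Cd8 T cells (1.71%, Cd8a and Cd8b1 of the rule included) and 117 at least 2-fold lower (4.25%), with 10 CPM added to both sides. With Poisson intervals also apart, 35 genes were higher (1.27%) and 72 lower (2.62%). The median log2 ratio over all 2751 genes was -0.05. Among barcodes of at most 3000 UMIs, 38 genes were at least 2-fold higher and 94 lower, of 2238 tested.

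Genes of killing were led by Nkg7, at 4245 CPM against 824 CPM (log2 ratio 2.35). Gzmk, the granzyme K protease, was at 467 CPM against 84.5 CPM (2.33) and was detected in 41.4% of Cd8 T cells against 9.22% of the others. Gzmb, granzyme B, was at 157 CPM against 16.4 CPM (2.67) but came from 14 barcodes, or 12.1%, with a ratio of 2.27 without the highest of them. Ctsw, the cathepsin of killer lymphocytes, was at 370 CPM against 153 CPM (1.22). Of 6 tested members of the cytotoxic list 4 were higher by 2-fold and none lower, with a median of 1.78 beside -0.05 for all genes. Srgn, the proteoglycan that packs granule proteins, was the member with the lowest ratio, at 375 CPM against 657 CPM (-0.79). Perforin (Prf1) had 3 UMIs in all 116 barcodes, Gzma 4 and Gzmm 1, levels at which no comparison can be made. Fasl, the death ligand, was present in 13 barcodes (11.2%).

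The secreted factors of Cd8 T cells were mainly chemokines. Ccl4 stood at 2135 CPM against 109 CPM (log2 ratio 4.17) and was seen in 37.1% of barcodes against 5.07%. A single barcode held 43.7% of its UMIs, and without it Ccl4 was 1210 CPM with a ratio of 3.36. Ccl3, a close relative on the same receptors, was at 548 CPM against 40.9 CPM (3.45), with 40.7% of UMIs from 1 barcode and a ratio of 2.73 without it. Ifng, interferon gamma, was seen in 12.9% of Cd8 T cells against 5.99% of other T cells (101 against 40.9 CPM), with a ratio of 1.13 that was 0.93 without its highest barcode. Xcl1, which draws cross-presenting dendritic cells, was at 157 CPM against 131 CPM and Ltb, lymphotoxin beta, at 1243 CPM against 1554 CPM, so neither differed by 2-fold. Tnf had 2 UMIs, and Csf1 and Areg had none. Of 7 tested members of the secreted list 4 were at least 2-fold higher (Ccl5, Ccl4, Ccl3 and Ifng) and none lower (median 1.13), where 1.71% of all tested genes were higher and 4.25% lower.

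The RefSeq promoters of 11 of 19 genes asked for were at hand: Cd8a and the genes with the largest ratios or library shares that had an entry. They were searched on both strands for Runx motifs (TGTGGT or TGCGGT) and the T-box motif GGTGTGA, because Runx3 and Eomes, whose families bind such letters, were both higher in these cells. Of the 11 genes, 4 held a Runx motif and 2 a T-box motif, 5 having either; among 32851 promoters of 250 bases, 18.6% held a Runx motif and 3.33% a T-box motif. The 5 are shown from RefSeq on GRCm38.p6, 5′ to 3′ along the gene, with motifs in capitals (ACCACA is TGTGGT read on the other strand). They lie at chr13:113180966-113181215 (minus strand, Gzmk), chr7:43436888-43437072 (plus, Nkg7), chr9:123806227-123806474 (plus, Cxcr6), chr11:83649379-83649628 (minus, Ccl3) and chr14:56262335-56262584 (minus, Gzmb). The stretches stop before the first annotated exon base, so the T-box motif of Nkg7, 13 bases before its RefSeq start, is not in the stretch shown.
Gzmk: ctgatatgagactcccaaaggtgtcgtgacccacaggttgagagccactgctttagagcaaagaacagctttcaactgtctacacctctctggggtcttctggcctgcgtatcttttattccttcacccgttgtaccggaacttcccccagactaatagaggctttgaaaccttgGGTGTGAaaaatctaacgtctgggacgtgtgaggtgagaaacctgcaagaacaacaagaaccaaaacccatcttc
Nkg7: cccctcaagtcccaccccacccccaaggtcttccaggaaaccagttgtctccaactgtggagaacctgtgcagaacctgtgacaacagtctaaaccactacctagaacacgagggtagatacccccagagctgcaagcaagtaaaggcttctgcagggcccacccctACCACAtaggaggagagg
Cxcr6: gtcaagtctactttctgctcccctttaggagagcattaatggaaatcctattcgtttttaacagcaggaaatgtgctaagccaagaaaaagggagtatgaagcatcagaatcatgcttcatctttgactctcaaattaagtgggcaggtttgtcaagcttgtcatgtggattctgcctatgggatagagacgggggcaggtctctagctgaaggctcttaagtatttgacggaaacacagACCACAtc
Ccl3: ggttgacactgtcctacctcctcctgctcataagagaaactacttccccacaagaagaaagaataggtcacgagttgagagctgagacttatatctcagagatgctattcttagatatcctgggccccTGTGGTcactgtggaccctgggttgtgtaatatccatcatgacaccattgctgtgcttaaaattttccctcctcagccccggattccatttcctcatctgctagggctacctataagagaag
Gzmb: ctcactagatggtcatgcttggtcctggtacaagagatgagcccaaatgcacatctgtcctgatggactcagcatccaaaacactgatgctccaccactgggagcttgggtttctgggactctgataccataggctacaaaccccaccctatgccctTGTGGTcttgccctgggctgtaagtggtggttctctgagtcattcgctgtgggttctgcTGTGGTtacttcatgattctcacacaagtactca
The T-box letters of Gzmk lay 75 bases before the RefSeq start. The Runx letters lay 83 bases before it in Nkg7, 10 in Cxcr6, 122 in Ccl3, and 93 and 34 in Gzmb. For Gzmk and Gzmb no annotated transcript start was matched, so their orientation and distances rest on the RefSeq entry alone. No binding was measured, and a match describes letters only.

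Runx3, the Runx factor that keeps Cd4 silent in the Cd8 lineage, was at 284 CPM against 90.0 CPM (log2 ratio 1.56) and was seen in 39.7% of Cd8 T cells against 12.9% of the others. Eomes, a T-box factor of effector and memory Cd8 T cells, was at 122 CPM against 19.1 CPM (2.18), in 18.1% against 3.23% of barcodes. Tcf7, a factor of naive and memory-like cells, was in the naive list and stood at 96.4 CPM against 265 CPM (-1.37), in 13.8% against 32.3%. Id2 hardly differed, at 629 CPM against 545 CPM. Of 7 tested lineage factors 2 were at least 2-fold higher and 1 lower, with a median of 0.20.

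**Figure D2:**
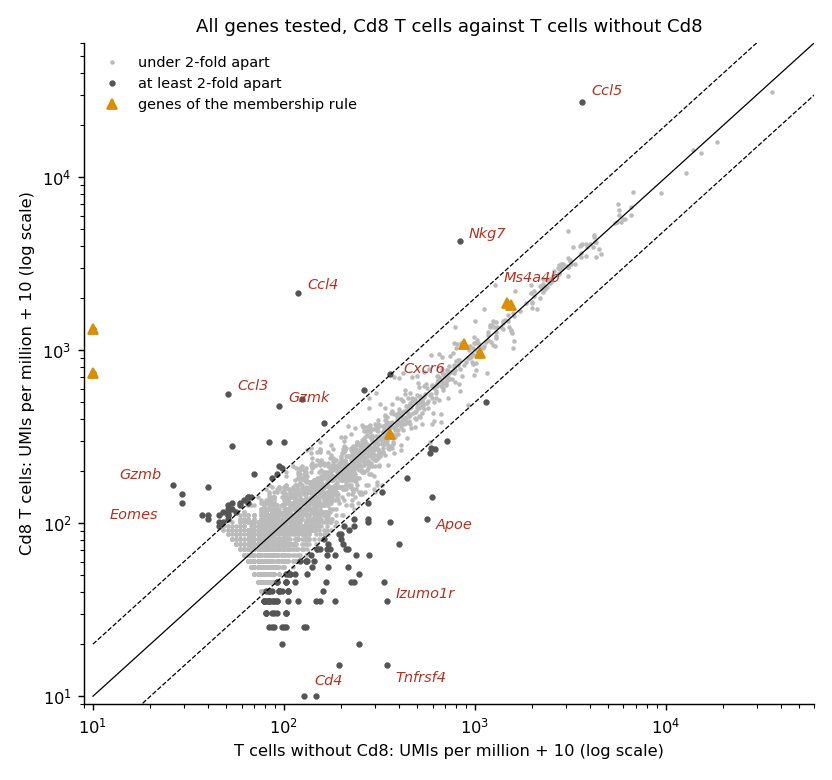
CPM + 10 of each of the 2751 tested genes in Cd8 T cells (vertical) and in T cells without Cd8 (horizontal) of the injured library, on log axes, with equality as a solid line and a 2-fold difference as dashed lines. Ccl5, Nkg7, Ccl4, Ccl3, Gzmk, Gzmb and Eomes lie above the band, and Tnfrsf4, Cd4 and Izumo1r below it.

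Of 9 tested chemokine receptors and integrins none was 2-fold lower, and their median log2 ratio was 0.38. Cxcr6, the receptor for Cxcl16 on tissue lymphocytes, was at 690 CPM against 368 CPM (0.89) and in 54.3% against 31.3%. Cxcr3 was seen in 31.0% of Cd8 T cells against 29.0% of the others. Cxcr4 and S1pr5 had no UMI. The residence integrin chain Itgae was in 6 barcodes (5.17%), and none of 5 tested residence genes passed 2-fold.

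Killer lectin receptors were sparse. Klrd1, the CD94 chain, was at 183 CPM against 59.99 CPM (log2 ratio 1.46) and in 20.7% of Cd8 T cells, and Klrk1, NKG2D, at 198 CPM against 106 CPM (0.84) in 18.1%. Klrg1, a mark of short-lived effector cells, had no UMI. Cd7 (284 against 73.6 CPM, 1.81) and Ctla2a, a T cell protease inhibitor (512 against 115 CPM, 2.07), were also higher. So were Themis, a thymocyte signalling protein (183 against 81.8 CPM, 1.07), and Sh2d2a, the adaptor TSAd (132 against 54.5 CPM, 1.14). Without the highest barcode of each, Themis was at 0.96, under 2-fold, and Sh2d2a at 1.04.

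Inhibitory receptors did not separate the classes. Lag3 was seen in 22.4% of Cd8 T cells and 15.7% of other T cells, Pdcd1, the gene of PD-1, in 17.2% and 13.4%, and the exhaustion-linked factor Tox in 25% and 16.1%. Their ratios were 0.37, 0.39 and 0.66, and none of the 3 passed 2-fold. Il7r, the survival receptor of naive and memory cells, was in 26.7% against 36.4%, and Il2rb, the beta chain of the receptors for interleukins that sustain memory cells, in 22.4% against 20.7%. Il2ra, the high-affinity chain, had no UMI, and of 5 tested cytokine receptors none passed 2-fold (median -0.29). Ccr7, a homing receptor of naive cells, was in 2 barcodes (1.72%). Of 7 tested naive and memory genes none was higher by 2-fold and Tcf7 alone was lower (median -0.33).

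Genes of the T cell receptor and its signalling stood at similar levels in both classes, with 0 of 13 higher, 1 lower and a median of -0.02. Lck, the proximal kinase, was at 1090 CPM against 974 CPM. All 6 MHC class I genes were within 2-fold, with B2m at 4078 CPM against 3979 CPM. Of 6 interferon response genes Isg15 (1.08) and Ifit1 (1.15) passed 2-fold, and the list's median was 0.38. Without the highest barcode of each they were at 0.74 and 0.72, under 2-fold. Immediate early genes were lower in 3 of 6, with Fos at -1.38, Junb at -1.21 and Nfkbia at -1.20, and a median of -0.78. Fos rested on 6 UMIs in Cd8 T cells, at 30.4 CPM against 95.4 CPM. Among barcodes of at most 3000 UMIs Fos was at 19.8 CPM against 44.2 CPM. Of 7 proliferation genes none passed 2-fold. Barcodes with at least 3 of 9 cycling genes were 5 of 116 Cd8 T cells, or 4.31% (1.41% to 9.77%), and 5 of 217 other T cells, or 2.30%; the 5 Cd8 T cells had a median of 4456 UMIs.

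Genes of helper and regulatory cells were lower in Cd8 T cells for 4 of 5 tested members of that list (median -2.34). Tnfrsf4, the costimulatory receptor OX40, was at 5.07 CPM against 335 CPM (-4.52), Cd40lg had a ratio of -2.34, and Cd4 one of -3.70. Outside the list, Izumo1r, folate receptor 4 of regulatory T cells, was at 25.4 CPM against 335 CPM (-3.29) and Tnfsf8, CD30 ligand, at 35.5 CPM against 325 CPM (-2.88). Gpm6b and Timp2 had no UMI in Cd8 T cells, against 136 and 117 CPM. Apoe, an abundant macrophage transcript, was at 96.4 CPM against 551 CPM (-2.40), yet it was detected in 16.4% of Cd8 T cells and 13.4% of the others. The Apoe ratio was -1.03 without barcodes that held at least 2 UMIs of the short list of other lineages. It was -1.24 when 3 T cell genes were required and -1.75 with the mean of per-cell CPM. The 6 macrophage markers summed to 127 CPM in Cd8 T cells, with 1 of 6 at 0, and to 491 CPM in the other T cells. Their part in the Apoe ratio was not tested beyond these settings.

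A few high ratios came from single barcodes. Plat, tissue plasminogen activator, had a ratio of 2.38 from 3 barcodes, 1 of which held 56.6% of the UMIs, and 1.28 without it. Atp6v1g3, a proton pump subunit of collecting duct intercalated cells, had 2.02, with 73.3% of UMIs in 1 barcode and 0.36 without it. Cd74, an MHC class II chain, was at 2384 CPM, yet 1 barcode held 219 of its 470 UMIs. Among barcodes of at most 3000 UMIs Cd74 was 317 CPM in Cd8 T cells and 1503 CPM in the other T cells.

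Against the 58 other T cells that held Cd4, differences were wider. Ccl5 was at 704 CPM there and in 32.8% of barcodes, a log2 ratio of 5.25 for Cd8 T cells. The ratio was 3.48 for Nkg7. For Ccl4 it was 6.80, but Ccl4 was in only 1 of the 58 barcodes, at 9.27 CPM, below the 10 CPM added to both sides. In Cd8 T cells 1 barcode held 43.7% of the Ccl4 UMIs.

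Of the injured library's UMIs, Cd8 T cells held 66.8% for Ccl5, 66.7% for Gzmk, 66.0% for Nkg7, 49.3% for Themis, 48.0% for Ctsw and 47.3% for Sh2d2a. The share was 43.7% for Cxcr6, 43.5% for Ccl4, 43.1% for Ms4a4b, a membrane protein of T cells, and 40% for Cd7. These 10 genes and the 7 T cell and Cd8 genes of the rule are followed in bulk kidney below.

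**Figure D3:**
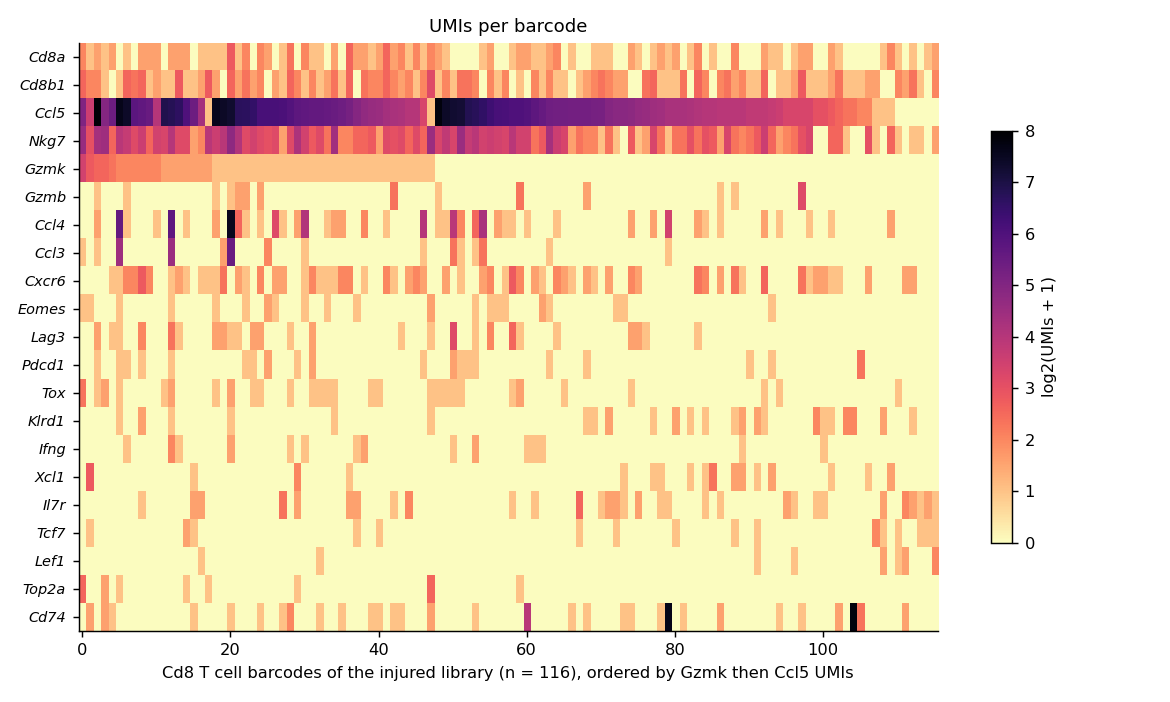
UMIs of chosen genes in each of the 116 Cd8 T cells of the injured library (columns, ordered by Gzmk and then Ccl5 UMIs), coloured as log2(UMIs + 1). Ccl5 fills nearly every column, from 0 to 234 UMIs, whereas Gzmk marks 48 columns, Ccl4 43 and Gzmb 14.

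Within the 116 cells, genes were detected in differing subsets, given here as counts without tests. The 48 cells with Gzmk had Lag3 in 33.3% against 14.7% of the 68 without it, and Tox in 37.5% against 16.2%. They had Cd69, an early activation and retention protein, in 14.6% against 35.3%, Il7r in 18.8% against 32.4% and Klrd1 in 12.5% against 26.5%. Their median depths were 1427.5 and 1307 UMIs and their mean depths 1978 and 1504 UMIs, with 6 of the 9 members over 3000 UMIs among the cells with Gzmk. Without those 9, Lag3 was in 35.7% of 42 against 15.4% of 65 cells, Tox in 38.1% against 16.9% and Cd69 in 14.3% against 35.4%.

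In the 16 cells with Tcf7, Ccl4 was found in 1 of them against 42 of the 100 others, Cxcr6 in 2 against 61, and Lag3 in 0 against 26. Pdcd1 was in 0 against 20, whereas Il7r was in 8 against 23 and Klf2, a factor of circulating cells, in 8 against 23. Runx3 was in 12 of the 16 against 34 of the 100. Eomes was in 3 against 18, Klrd1 in 4 against 20 and Ly6c2 in 3 against 23, similar shares in both. The 31 cells with Il7r more often held Ly6c2 (45.2% against 14.1%), Klf2 (48.4% against 18.8%) and Runx3 (54.8% against 34.1%), and 1 held Tox. Ccl3 was in 11 of the 43 cells with Ccl4 and in 4 of the 73 without it.

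The 5 Cd8 T cells of the uninjured library had 1153, 1298, 1876, 2751 and 3538 UMIs. Their Ccl5 UMIs were 0, 11, 6, 0 and 11, and their Nkg7 UMIs 3, 1, 7, 0 and 6. Cxcr6 was present at 0, 1, 1, 1 and 2 UMIs. Ccl5 and Nkg7 transcripts were thus found without injury too, but 5 cells allow no comparison of levels. Gzmk, Gzmb and Tcf7 had no values for the uninjured library, so whether these 5 cells held them could not be read.

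In the bulk kidney libraries the targeted gene was checked first. Ihh stood at 4.58, 6.09, 5.09 and 4.86 CPM in the Ihh-deleted injured libraries, at 9.85, 5.98, 9.79 and 11.8 CPM in the wild-type tamoxifen and at 9.31, 11.1, 15.4 and 6.88 CPM in the floxed vehicle injured libraries. In the contralateral kidneys of the Ihh-deleted arm it ranged from 3.44 to 17.2 CPM. The injured difference of Ihh-deleted from intact kidneys was -0.73 ± 0.34 (log2 ± SE), with a Benjamini-Hochberg adjusted p of 0.0930 (edgeR, quasi-likelihood), so the label was not borne out by the total level of Ihh RNA at the threshold; which exons remain was not measured. Gli1, a target of hedgehog signalling, fell by 1.33 (adjusted p 0.0118). The group is called the Ihh-deleted arm as labelled. In bulk, fewer Cd8 T cells and less RNA per cell cannot be told apart.

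Cd8 T cell genes were higher in injured than in contralateral kidneys. Cd8a ranged from 2.92 to 33.2 CPM over the 12 injured libraries (median 12.3) and from 2.20 to 3.30 CPM over the 12 contralateral ones (median 2.68), so that 11 injured libraries lay above every contralateral one. In the 8 libraries of nephrectomised and uninjured mice, which were left out of the test, Cd8a was at most 2.40 CPM. Of these, nephrectomy library 3 and uninjured libraries 1 and 4 carry heart muscle genes. Their levels of Slc34a1, a proximal tubule marker, were 3.70, 1.83 and 0.92 CPM. Nephrectomy library 1 had Slc34a1 at 4982 CPM but also held the heart muscle gene Myh6, at 314 CPM. Uninjured library 2 had only 0.592 M counts. The fitted log2 difference of Cd8a between injured and contralateral kidneys was 1.66 ± 0.24 (adjusted p 2.98e-06, edgeR). Cd8b1 ranged from 0.54 to 7.76 CPM against 0.53 to 0.93 CPM and rose by 1.51 ± 0.30 (adjusted p 1.07e-04), with 9 of 12 injured libraries above every contralateral one. Ccl5 rose by 2.67 ± 0.43 (adjusted p 9.68e-06), from a contralateral range of 0.11 to 0.79 CPM to an injured one of 0.47 to 14.0 CPM.

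Nkg7 ranged from 0.55 to 16.1 CPM in injured kidneys and from 0.38 to 1.48 CPM in contralateral ones, and it rose by 2.39 ± 0.37 (adjusted p 5.67e-06). Gzmk was at 0.12 to 6.67 CPM against 0 to 0.29 CPM and rose by 3.75 ± 0.50 (adjusted p 9.01e-07). Cxcr6 was at 1.53 to 26.2 CPM against 0.63 to 3.89 CPM and rose by 1.59 ± 0.28 (adjusted p 2.57e-05). For Gzmk 11 of 12 injured libraries lay above every contralateral one, for Nkg7 10 and for Cxcr6 9. Sh2d2a had the largest rise of the 17 genes, 3.77 ± 0.31 (adjusted p 3.24e-09), and Ccl4 the smallest, 1.45 ± 0.52 (adjusted p 0.0153).

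All 17 genes passed the test with higher levels in injured kidney, in a comparison where 39.5% of 16989 genes were higher and 35.5% lower. Every injured library lay above every contralateral one for Cd3d, Cd3e and Sh2d2a, or 3 of 17, where 11.6% of all genes did so. The other lists moved widely the same way: 13 of 13 receptor signalling genes rose (median 3.23), 9 of 9 cytotoxic genes (2.25), 8 of 8 inhibitory receptors and Tox (3.07), and 8 of 8 helper and regulatory genes (2.72), beside a median of 0.05 for all genes. So did genes of other leukocytes, with Cd79a of B cells at 3.71, C1qb of macrophages at 2.28 and the pan-leukocyte gene Ptprc at 2.71. The part of these cells in genes that they share with Cd8 T cells was not tested.

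**Figure D4:**
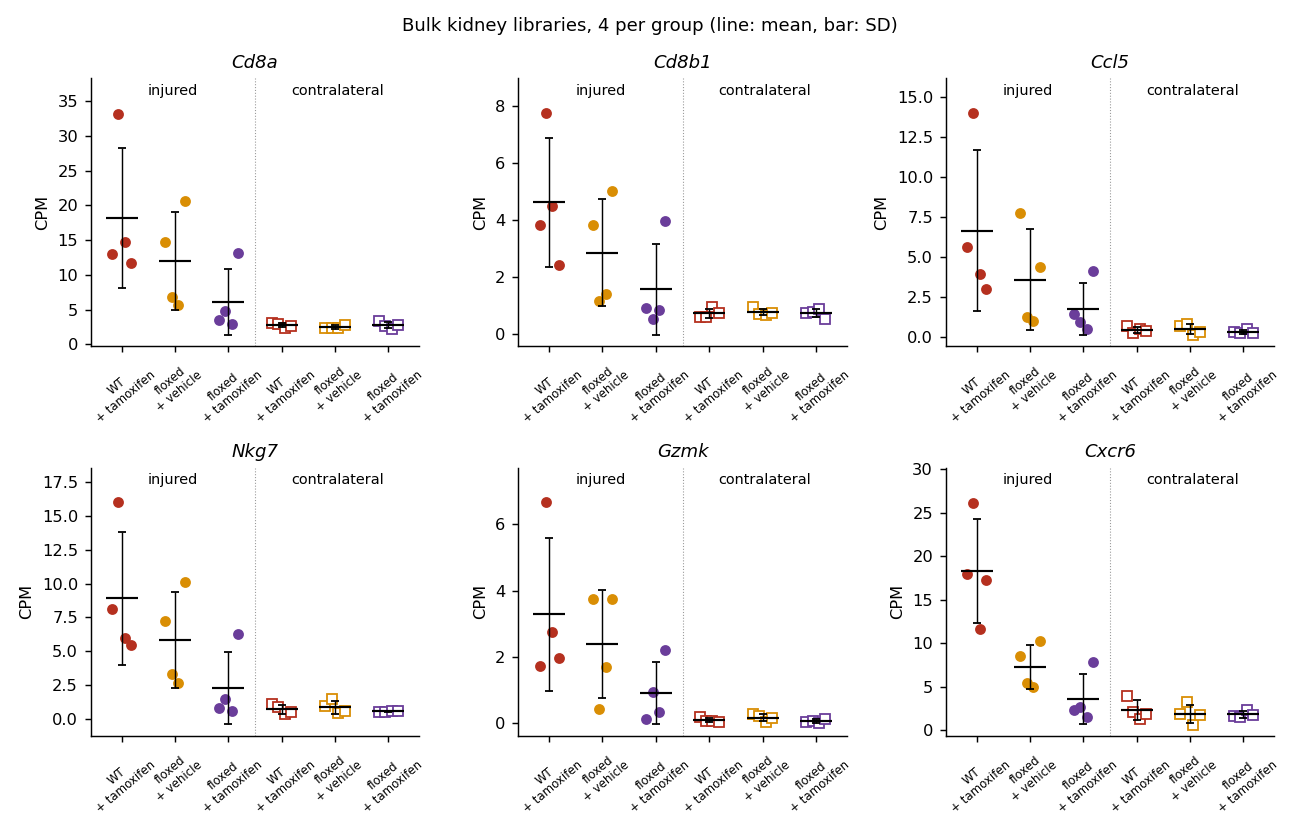
CPM of 6 Cd8 T cell genes in each bulk library of injured and contralateral kidneys of the 3 arms, with 4 points per group, the mean as a line and the SD as a bar. Library 4 of the Ihh-deleted injured group, with Cd8a at 13.2 CPM, stands above the other 3 of its group, at 2.92 to 4.79 CPM.

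Within injured kidneys, Cd8 T cell genes lay lower in the Ihh-deleted arm than in the intact arms, past the threshold for 5 of 17 genes. The same injured libraries enter this comparison and the one above. In this comparison 17.5% of all 16989 genes were lower and 20.2% higher. Cd8a was at 3.50, 4.79, 2.92 and 13.2 CPM in the 4 Ihh-deleted libraries. It was at 12.9, 33.2, 14.8 and 11.7 CPM in the wild-type tamoxifen libraries and at 14.8, 6.74, 5.71 and 20.7 CPM in the floxed vehicle ones, so that the groups overlapped through library 4. The gene fell by 1.06 on the log2 scale (SE 0.37, adjusted p 0.0277).

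Cxcr6 was at 2.35, 2.60, 1.53 and 7.78 CPM in the Ihh-deleted, 18.01, 26.2, 11.7 and 17.2 CPM in the wild-type tamoxifen and 8.54, 5.36, 4.93 and 10.2 CPM in the floxed vehicle libraries. It fell by 1.49 (SE 0.43, adjusted p 0.0107). Nkg7 was at 0.82, 1.48, 0.55 and 6.28 CPM against 8.16, 16.1, 6.01 and 5.44 CPM and against 7.24, 3.29, 2.64 and 10.1 CPM, and fell by 1.46 (SE 0.54, adjusted p 0.0381). In both genes 3 Ihh-deleted libraries lay below all 8 intact ones and library 4 lay among them. Ctsw fell by 1.63 (adjusted p 0.0165) and Ms4a4b by 1.49 (adjusted p 0.0412). Without library 4 the differences were -1.69 for Cd8a, -2.14 for Cxcr6, -2.63 for Nkg7, -2.51 for Ctsw and -2.58 for Ms4a4b. Of the 24 fits that left out 1 library, the call was lost in 5 for Cd8a, 1 for Cxcr6, 6 for Nkg7, 3 for Ctsw and 6 for Ms4a4b.

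The other 12 genes did not pass. Ccl5 was at 1.44, 0.94, 0.47 and 4.11 CPM in the Ihh-deleted libraries, 5.60, 14.0, 3.91 and 3.01 CPM in the wild-type tamoxifen and 7.77, 1.22, 0.99 and 4.35 CPM in the floxed vehicle ones, a difference of -1.29 (adjusted p 0.0954). Gzmk was at 0.12, 0.94, 0.34 and 2.21 CPM against 1.74, 6.67, 2.75 and 1.98 CPM and against 3.74, 0.42, 1.69 and 3.74 CPM, a difference of -1.42 (adjusted p 0.0765). Cd8b1 had a difference of -1.003 (adjusted p 0.0768). All 17 fitted differences were below 0, from -1.63 to -0.57.

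The count rested on single libraries and on the control arm. Without Ihh-deleted library 4 it was 16 of 17, where 7528 of all 17223 genes passed. Without Ihh-deleted library 3 it was 0 by edgeR's quasi-likelihood test, where 3260 of 17249 genes passed. In that fit 4 of 17 were under an unadjusted p of 0.05. Over all fits that left out 1 library, 3260 to 7798 of all genes passed. The count of the 17 was 1 without Ihh-deleted library 1 or 2 and 2 without wild-type tamoxifen library 2 or floxed vehicle library 4. It was 3 without floxed vehicle library 1 and 8 without floxed vehicle library 2 or 3. With all libraries kept, 13 of 17 were under an unadjusted p of 0.05. Against the wild-type tamoxifen arm alone 11 of 17 passed, where 6711 of all 16989 genes did. Against the floxed vehicle arm alone, which shares the strain, 0 passed by edgeR's quasi-likelihood test, where 2481 of 16989 genes did. In that comparison 1 of 17 was under an unadjusted p of 0.05. Library 4 also stood highest of its group for macrophage, B cell and dendritic cell markers and lowest for proximal tubule markers.

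Other leukocyte genes moved beside those of Cd8 T cells: Ptprc fell by 1.19 (adjusted p 0.0400), C1qb by 1.51 (adjusted p 0.00410) and Foxp3, the factor of regulatory T cells, by 1.47 (adjusted p 0.0349). The summed macrophage markers ran from 203 to 941 CPM in the Ihh-deleted and from 594 to 2227 CPM in the intact injured libraries. B cell markers ran from 22.3 to 145 CPM and from 30.9 to 415 CPM, and the 4 Cd8 T cell markers from 2.59 to 22.6 CPM and from 7.78 to 59.3 CPM. Proximal tubule markers ran the other way, from 19482 to 39247 CPM and from 6793 to 24928 CPM. Their part in the differences of single genes was not tested.

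By list, genes of chemokine receptors and integrins were lower in 9 of 12 (median -1.30) and interferon response genes in 10 of 10 (-1.32), beside a median of -0.01 for all genes. Cxcr3 fell by 1.41 (adjusted p 0.0424). Cytokine receptors were lower in 8 of 11 (-1.26) and MHC class I genes in 5 of 6 (-0.80). Receptor signalling genes were lower in 4 of 13 (-1.19), secreted factors in 5 of 12 (-1.24), cytotoxic genes in 2 of 9 (-0.99) and inhibitory receptors and Tox in 3 of 8 (-0.96), with none higher in these 4 lists, where 17.5% of all genes were lower. Lineage factors were higher in 3 and lower in 2 of 11 (-0.78), immediate early genes in 1 and 1 of 11 (-0.06), naive and memory genes in 1 and 4 of 12 (-0.74) and gamma delta and innate-like genes in 1 and 2 of 6 (-0.56). Most of these genes are also expressed by other leukocytes.

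Whether injury raised these genes less in the Ihh-deleted arm was tested as a difference between arms. Within the Ihh-deleted arm alone, 12 of 17 genes rose from contralateral to injured kidney, where 19.7% of all genes were higher, and within the intact arms 17 of 17 rose, where 39.3% were. The Ihh-deleted arm alone gave Cd8a a rise of 0.93 that missed the threshold (adjusted p 0.0845). The difference between the arms was -1.09 for Cd8a (adjusted p 0.131), -1.24 for Cxcr6 (0.134), -0.88 for Nkg7 (0.430) and -0.72 for Ccl5 (0.601). By edgeR's quasi-likelihood test 0 of 17 passed, where 8.46% of all genes were higher and 5.78% lower. In that test 2 of 17 were under an unadjusted p of 0.05. By DESeq2's Wald test 0 of 17 passed the adjusted threshold, and 2 of 17 were under an unadjusted p of 0.05. Without Ihh-deleted injured library 4 the count passing by edgeR was 8 of 17, where 4602 of all 17223 genes passed.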

How the data were processed

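Values of the single-cell tables are counts of UMIs by gene and barcode, deposited without scaling, and per the labels' protocols came from 10x 3' v2 libraries; Cell Ranger and STAR are named in the submitters' processing notes. The bulk values are expected counts of transcripts, which the authors deposited and the same notes tie to Salmon 1.4 on GRCm38; its options are not given there. Of 105833 transcripts 105281 matched GENCODE M21, and the other 552 (0.185% of counts) were left out. Summing over transcripts gave 33714 genes, rounded to whole counts.

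Members and gene lists were chosen with earlier results of these data known. Named genes were the rule genes and markers, list members in at least 10% of Cd8 T cells (up to 4 per list), the 12 largest ratios per direction, and the 10 genes with the largest share of library UMIs. Single-cell UMIs were summed per class with exact Poisson and binomial intervals and no test (Python 3.11.15, scipy 1.17.1). Some genes the rule picked are not reported here. Doublets were called with Scrublet in scanpy 1.11.5 and none were removed.

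Bulk tests used edgeR 4.0.16 in R 4.3.3 (TMM, filterByExpr, quasi-likelihood F test, Benjamini-Hochberg adjustment over 16989 genes, threshold 0.05) on the 24 libraries of the 3 arms, with 18.2 M to 37.9 M counts each; the script was tested on simulated data. CPM used library totals, log2 values are fitted, and the arms had equal weight. The nephrectomy and uninjured libraries entered only the alternative with all 32 libraries. Of them, 3 carry heart muscle genes with little Slc34a1, and nephrectomy library 1 holds Myh6 beside high Slc34a1. Alternatives, with DESeq2 1.42.0 among them, are given in the closing section; the limit of 3000 UMIs, the removal of single barcodes, the co-detection under that limit and all alternatives for the difference between arms were added after the data were seen.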

Additional observations from a re-analysis of the deposited data

Results flagged for a closer look

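Of 135 sets of 4 libraries (1 gene in 1 group), 15 had 1 library apart from the other 3 by more than Dixon's limit; chance alone sets about 1 in 20 apart. Library 4 of the Ihh-deleted injured group accounted for 8. It held Cd8b1 at 3.96 CPM (others 0.537 to 0.907), Cd3d at 5.87 (0.940 to 1.06), Cd3e at 16.6 (2.14 to 3.40), Cd3g at 8.26 (0.721 to 1.88), Trac at 9.12 (0.660 to 1.57), Trbc2 at 12.8 (1.44 to 2.42), Nkg7 at 6.28 (0.551 to 1.48) and Ms4a4b at 21.6 CPM (2.97 to 4.34).

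Library 2 of the wild-type tamoxifen injured group was high for Cd8a at 33.2 CPM (others 11.7 to 14.8), Cd3g at 21.5 (6.92 to 7.64) and Sh2d2a at 17.7 CPM (5.35 to 7.44). Among contralateral kidneys, wild-type tamoxifen library 1 had Ctsw at 1.095 CPM (0.340 to 0.404). In groups outside the tests, uninjured library 2, with 0.592 M counts, had Ccl5 at 1.69 CPM (0.0297 to 0.180), uninjured library 1, one of those with heart muscle genes, had Cd7 at 0.0901 CPM where the other 3 were at 0, and nephrectomy library 2 had Ccl4 at 0.393 CPM (0.114 to 0.147).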

How the results depend on the processing

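The share of Cd8 T cells in the injured library, 3.79% (116 of 3063), was 2.91% (89 of 3063) when 2 Cd8 UMIs were required. It was 4.62% (110 of 2380) among barcodes of at most 20% mitochondrial UMIs and 4.87% (107 of 2197) among barcodes of at most 3000 UMIs. Without barcodes that held at least 2 UMIs of the short list of myeloid and plasma cell genes it was 4.67% (113 of 2420). In the last 3 settings the total of barcodes fell more than the members did. Against T cells without Cd8, a minimum of 10 UMIs gave 167 genes higher and 447 lower of 6123 tested, instead of 47 and 117 of 2751. Against T cells with Cd4, 64 genes were higher and 74 lower of 1484 tested. Atp6v1g3 turned to -0.99 and Apoe moved to -1.24 when 3 T cell genes were required. Over leave-one-out fits, injured against contralateral kidney gave 12440 to 13144 genes and 16 to 17 of the 17 Cd8 T cell genes; the Ihh-deleted arm alone gave 5752 genes and 12 of 17. Ihh-deleted against intact injured kidney, 6407 genes and 5 of 17, gave 3260 to 7798 genes and 0 to 16 of 17 over leave-one-out fits, the ends of the second range without Ihh-deleted library 3 and 4. With all 32 libraries it gave 1657 genes and 2 of 17, and by DESeq2 6934 genes and 8 of 17. Against the wild-type tamoxifen arm alone it gave 6711 genes and 11 of 17, and against the floxed vehicle arm alone 2481 genes and 0. Library numbers were not taken to pair the kidneys of an arm, as the correlation was over 0.1 in 6 of 12 pairs only (-0.225 to 0.192, own number best in 5, 3 of them in the wild-type tamoxifen arm); with a replicate block the counts were 12635 genes and 17 of 17 for injury, and 6349 genes and 8 of 17 for Ihh deletion. All 17 differences kept their sign in both comparisons under these settings. Few UMIs limit the single-cell values, as 3 UMIs are 15.2 CPM of Cd8 T cells.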
